A study of Mus musculus with 10 samples.

Results

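Ribosomal protein pseudogenes were examined in mouse pancreatic islets taken at 2 times of the day. A row of the array table was counted when the platform annotation gave it exactly 1 gene symbol of the form Rpl or Rps followed by a -ps suffix, and the symbol before the suffix was taken as the parent gene. There were 209 such rows for 208 symbols and 51 parents, among 32814 rows naming at least 1 gene. Only Rpl14-ps1 had 2 rows. The class was selected on the differences of its rows between these same arrays, which were already known, so that the differences given for the pseudogenes are a description and no test was run over the class.

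The islets came from male C57BL/6 mice (C57Bl/6J in the study's methods) labelled as 10-week-old, were hand-picked after collagenase digestion and were kept in culture for 24 h according to 1 label and overnight according to another. There were 5 arrays from ZT20 islets and 5 from ZT8 islets (Zeitgeber time, hours after lights on), each labelled as a biological replicate. Both groups were untreated and of 1 genotype. Per the study's methods the ZT20 islets came from mice on an inverted light cycle, whereas the labels give the same lights-on hour to both groups, and time of day and housing therefore cannot be told apart. RNA was labelled with the WT Pico kit and hybridised to one-colour Affymetrix arrays, and the deposited values were on a log2 scale between 1.66 and 13.7. Pearson's r between arrays over all rows of the table, control rows included, was 0.986 to 0.995. All differences are ZT20 minus ZT8 on that scale, so that a negative value means lower at ZT20. No read depth stands behind array values. An SD gives the spread between the 5 arrays of a group. An SE or interval is that of limma, in which the variance of a row is drawn toward that of all tested rows.

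The ribosome is built of a large and a small subunit, each an RNA scaffold carrying proteins of the Rpl and Rps series. Nearly all of these proteins are made from a single intron-containing gene, whose abundant mRNA has been copied back into the genome many times by the reverse transcriptase of retrotransposons. The resulting processed pseudogenes lack introns, sit far from their parent, usually lack its promoter and stay close to it in sequence. Array probes placed on such a copy can therefore also bind the mRNA of the parent or of a sister copy. Probe sequences were not analysed here, so a pseudogene row is read as the signal of its probes and not as transcription of that copy.

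The annotation of the copies was read for biotype, length and chromosome, while introns and distance to the parent were not examined. RefSeq gave 200 rows the biotype pseudogene, 7 rows transcribed pseudogene and 2 rows, Rpl31-ps12 and Rpl34-ps1, protein coding. Their RefSeq length had a median of 515 bp (281 to 41903 bp). Members lay on 20 chromosomes, with 29 rows on X, 17 on chromosome 11 and 15 each on chromosomes 2 and 4. Promoter sequence of RefSeq (GRCm38.p6) was at hand for 1 pseudogene, Rpl31-ps12. The 100 bases before its start and before that of its parent Rpl31, a protein of the large subunit, are shown to set the copy beside its source.
Rpl31-ps12, chr16:16820197-16820296, minus strand: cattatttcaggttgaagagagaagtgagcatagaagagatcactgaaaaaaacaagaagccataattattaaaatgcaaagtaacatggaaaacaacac
Rpl31, chr1:39367751-39367850, plus strand: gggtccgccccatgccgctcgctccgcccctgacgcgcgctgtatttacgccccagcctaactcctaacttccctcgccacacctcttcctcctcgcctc
Over all 250 bases before the start in the table, the longest exact run shared by the pair was 7 bases, and G or C made up 36.8% of the bases of Rpl31-ps12 and 62.8% of those of Rpl31. Further on, past the starts, the pair shared a stretch in which 22 of 23 bases, given with identical bases in capitals, were the same.
Rpl31-ps12, chr16:16820158-16820180, minus strand: GCGACTTTCCtTCCCACAAACCC
Rpl31, chr1:39367878-39367900, plus strand: GCGACTTTCCcTCCCACAAACCC
The stretch began at base 17 of Rpl31-ps12 and at base 28 of Rpl31, counting each start as 1. The Rpl31-ps12 row differed by -0.23 and the Rpl31 row by -0.11, the parent's difference being within the spread of its arrays (SE 0.068, limma, adjusted p = 0.40).

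As a class the pseudogene rows were lower at ZT20. Their mean was 9.68, 9.51, 9.64, 9.58 and 9.54 on the ZT20 arrays, against 9.77, 9.78, 9.76, 9.74 and 9.71 on the ZT8 arrays. Each ZT20 array lay below each ZT8 array, with 9.59 ± 0.070 at ZT20 and 9.75 ± 0.028 at ZT8 (SD, n = 5 each). The ZT20 arrays were also more spread out: within ZT20, replicate 1 was the highest array on 121 of the 209 rows and replicate 2 the lowest on 120. Of the 209 differences 201 were negative and 8 positive. Their median was -0.15, which is 1.11-fold, with quartiles of -0.22 and -0.10 and a range of -0.64 to 0.17. Over all tested rows the median was 0.03 and 38.1% of the differences were negative. The arrays of a group differed little: the median pooled SD of a pseudogene row was 0.079, against 0.10 over all tested rows. In 180 of the 209 rows the difference was larger than that row's pooled SD. That share was not computed over all tested rows, and nothing is read from it.

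**Figure D1:**
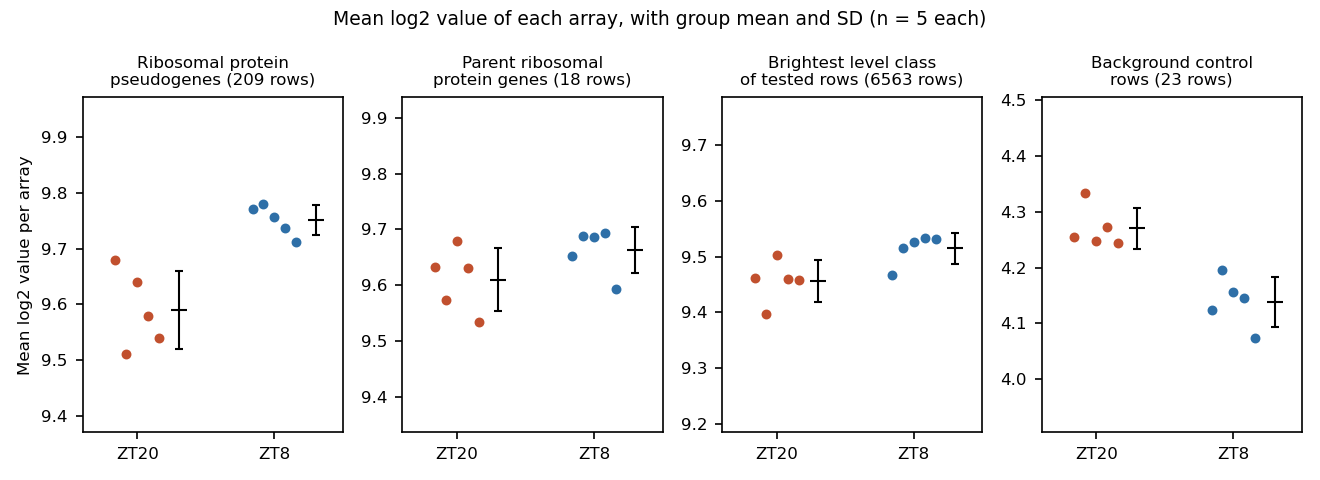
Mean log2 value of each array (points) at ZT20 and ZT8 over the pseudogene rows, the parent rows, the brightest of 5 level classes of the tested rows and the background control rows, with group mean and SD (n = 5 each). All panels span the same height in log2 units. The pseudogene means of ZT20 (9.51 to 9.68) lie below those of ZT8 (9.71 to 9.78), the parent means overlap, and the background control rows lie higher at ZT20.

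Other rows moved between the groups as well. The background control rows of the array averaged 4.27 ± 0.037 at ZT20 and 4.14 ± 0.045 at ZT8, again without overlap but in the opposite direction. The ERCC control rows were also higher at ZT20 without overlap, by 0.14. Control rows with pos in their ID were 0.08 lower at ZT20, as the pseudogenes were, but their arrays overlapped. Those with neg in their ID averaged 5.07 at ZT20 and 5.05 at ZT8 and overlapped. The median of the transcript rows was 0.05 higher at ZT20, and the brightest of 5 level classes of equal number among the tested rows was 0.06 lower on average. How far such shifts enter into the pseudogene differences was not tested. With each array centred on its median 205 of the 209 pseudogene rows were below 0, and after quantile normalization 188 were, with medians of -0.21 and -0.10. The median of all tested rows was -0.02 after centring and 0.01 after quantile normalization.

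In the fit across all tested rows, 12 pseudogene rows were lower at ZT20 at an adjusted p under 0.05 and none was higher (limma with Benjamini-Hochberg adjustment). The same call was made for 0.567% of all tested rows in the lower and 0.177% in the higher direction. At an unadjusted p under 0.05 the numbers were 143 lower and 2 higher, against 8.37% and 10.2% of all tested rows. With a difference of at least 1.3-fold in addition, they were 5 lower and 0 higher, against 0.518% and 0.192% of all tested rows. Because the members were chosen with this contrast in view, nothing is read from these counts. The adjusted p of the called rows reached 0.0498, and the next row outside had 0.0515. The number of calls rested on single arrays: it was 39 without ZT20 replicate 1, 3 without ZT20 replicate 3, 1 without ZT8 replicate 1 or 5, and 0 without any one of the other 6 arrays. It was also 0 with the methods' t-test after adjustment, which left 143 lower and 1 higher at an unadjusted p under 0.05.

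The largest difference was that of Rpl9-ps1 on chromosome 11, a copy of the gene for a large-subunit protein. Its values were 9.002, 8.57, 8.86, 8.59 and 8.71 at ZT20, against 9.40, 9.49, 9.37, 9.37 and 9.29 at ZT8. All ZT20 arrays lay below all ZT8 arrays, by -0.64 on average (SE 0.080, 1.55-fold lower). Rpl9-ps3, on the same chromosome, was a much dimmer row and behaved in the same direction. It had 5.49, 5.50, 5.56, 5.26 and 5.45 at ZT20, against 5.85, 5.87, 5.87, 5.72 and 5.83 at ZT8, a difference of -0.38 (SE 0.060). The other Rpl9 copies did not share these sizes: the family of 7 rows had a median of -0.11, and Rpl9-ps5 gave 0.03.

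Among copies of small-subunit genes, Rps15a-ps5 gave 8.53, 8.29, 8.44, 8.14 and 8.34 at ZT20, against 8.98, 8.87, 8.79, 8.72 and 8.66 at ZT8. Its groups were apart by -0.45 (SE 0.079). Rps6-ps4 is a transcribed pseudogene of Rps6, the ribosomal protein phosphorylated by S6 kinase. It measured 10.85, 10.28, 10.73, 10.59 and 10.63 at ZT20, against 11.13, 11.06, 10.98, 11.08 and 11.01 at ZT8. The ZT20 array of replicate 2 was the lowest by a margin, and the difference was -0.43 (SE 0.088). For Rps2-ps9 the values were 9.30, 8.92, 9.15, 9.05 and 9.02 at ZT20, against 9.42, 9.43, 9.45, 9.38 and 9.36 at ZT8 (-0.32, SE 0.066). Rps24-ps2 had 9.27, 9.03, 9.05, 9.10 and 9.01 at ZT20, against 9.38, 9.36, 9.43, 9.39 and 9.36 at ZT8 (-0.29, SE 0.054). In both rows ZT20 replicate 1 was the ZT20 array closest to the ZT8 arrays, and the ZT8 arrays differed little among themselves.

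The remaining called rows were copies of large-subunit genes. Rpl17-ps9 had 8.91, 8.57, 8.72, 8.50 and 8.57 at ZT20, against 9.05, 9.07, 9.06, 9.05 and 8.98 at ZT8 (-0.39, SE 0.071). Rpl17-ps4, on another chromosome, had 10.41, 10.16, 10.39, 10.27 and 10.17 at ZT20, against 10.62, 10.60, 10.54, 10.55 and 10.54 at ZT8 (-0.29, SE 0.058). Both are copies of Rpl17, whose protein lies near the exit of the nascent peptide tunnel. The X-linked Rpl21-ps15 gave 10.44, 10.25, 10.38, 10.26 and 10.36 at ZT20, against 10.64, 10.59, 10.69, 10.63 and 10.66 at ZT8 (-0.30, SE 0.050). For Rpl35a-ps5 the arrays read 10.54, 10.24, 10.51, 10.38 and 10.31 at ZT20, against 10.72, 10.75, 10.65, 10.71 and 10.66 at ZT8 (-0.30, SE 0.062). No group of either row reached into the other. Rpl28-ps4 (-0.26, SE 0.048) and Rpl7a-ps12 (-0.25, SE 0.052) completed the set, and both were also without overlap between the groups. Counting rows in this way over the class, 86 of 209 pseudogene rows had every ZT20 array below every ZT8 array and 0 had the reverse. Over all tested rows these shares were 3.39% and 2.54%. In the brightest of the 5 level classes the counts were 732 and 26 of 6563 tested rows, and 75 and 0 of 154 pseudogene rows. Since the rule used this contrast nothing is read from these comparisons.

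**Figure D2:**
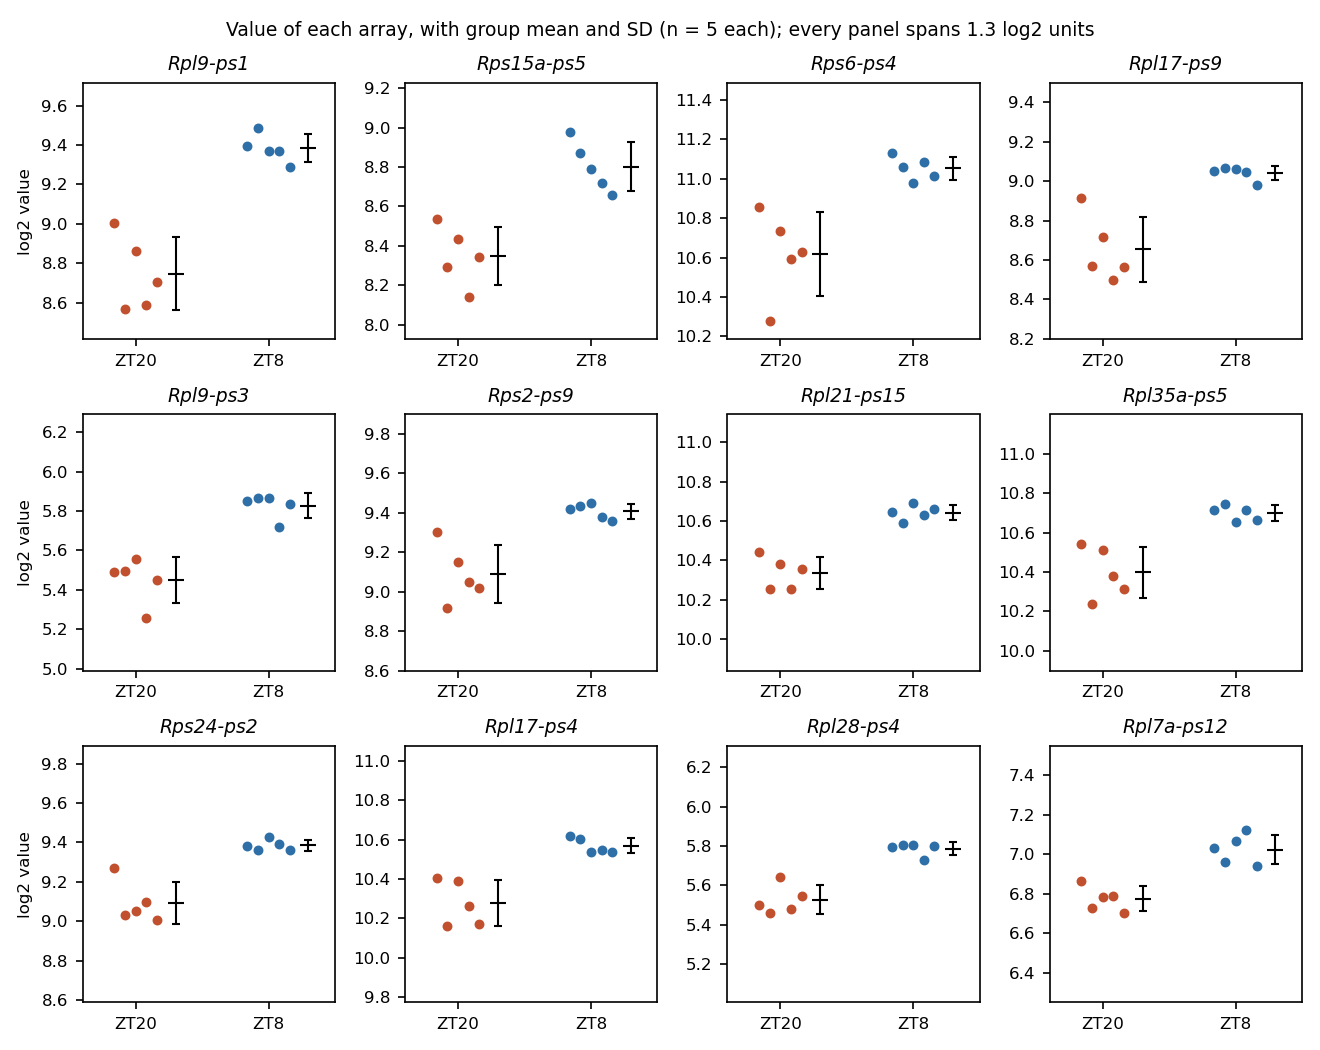
Log2 value of each array (points) at ZT20 and ZT8 for the 12 called pseudogene rows, with group mean and SD (n = 5 each), in order of their difference. All panels span 1.3 log2 units. In each panel the ZT20 arrays lie below the ZT8 arrays, and the ZT20 arrays are the more spread out in most of them.

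The brightest pseudogene rows had differences close to the median of the class. The 8 with the highest mean were Rpl30-ps1, Rpl31-ps8, Rpl10-ps1, Rpl35a-ps3, Rpl35a-ps4, Rpl35a-ps6, Rpl30-ps10 and Rpl30-ps9, and their differences ran from -0.17 for Rpl30-ps1 to -0.10 for Rpl10-ps1. Rpl30-ps1 had 12.72, 12.50, 12.66, 12.67 and 12.65 at ZT20, against 12.80, 12.80, 12.78, 12.79 and 12.88 at ZT8. Rpl31-ps8 had 12.65, 12.55, 12.63, 12.51 and 12.56 at ZT20, against 12.71, 12.76, 12.69, 12.72 and 12.70 at ZT8. None of the 8 was called, and Rpl10-ps1, copied from the gene of a protein that joins the large subunit late in its assembly, was the only one whose groups overlapped. Rpl35a-ps3, Rpl35a-ps4 and Rpl35a-ps6 held identical values on all 10 arrays and are therefore 1 measurement under 3 names. In all, 9 pseudogene rows in 4 groups shared every value with another row, the others being Rps12-ps6 with Rps12-ps17 and Rps12-ps18, Rps19-ps1 with Rps19-ps2, and Rps12-ps13 with 3 rows outside the class.

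Of the 8 rows above 0 none was called. The 3 highest were copies of large-subunit or related genes, and the groups overlapped in each. Rpl7l1-ps1, a copy of the gene for an Rpl7-like protein, had 6.92, 7.11, 6.98, 6.75 and 6.96 at ZT20, against 6.80, 6.88, 6.84, 6.76 and 6.63 at ZT8 (0.17, SE 0.069). Rpl13-ps1 had 7.00, 7.17, 6.94, 7.02 and 6.99 at ZT20, against 7.02, 6.73, 6.82, 6.85 and 6.90 at ZT8 (0.16, SE 0.062). Rpl36-ps1 differed by 0.10 (SE 0.071). In all 3 the highest array was ZT20 replicate 2, the array on which most pseudogene rows were lowest within their group. The lowest adjusted p among the 8 was 0.20 (limma).

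Copies of 1 parent did not all have the same difference. Of the 51 parents 13 had 1 row and 38 had at least 2, and over the 196 rows of these 38 families 38.3% of the variance of the differences lay between families and 61.7% within them. The split under a random grouping of rows was not computed. The share within families also holds the error of each row, and rows with identical values add to the share between families. How far copies of 1 parent resemble each other is therefore not read from this split. Family medians were below 0 for 50 of 51 parents. In 32 of the 38 larger families every copy was below 0. The 12 called rows belonged to 10 families.

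Rpl31 had the most copies. Its 22 rows on 12 chromosomes all had negative differences, between -0.40 for Rpl31-ps5 and -0.09 for Rpl31-ps9, with a median of -0.20. In 14 of them the groups did not overlap, against 3.39% of all tested rows in this direction, and none was called. Most of the 14 were in the brightest of the 5 level classes, where 732 of 6563 tested rows were without overlap in this direction. Rpl31-ps5 measured 7.15, 6.63, 7.03, 6.82 and 7.06 at ZT20, against 7.61, 7.37, 7.26, 7.26 and 7.19 at ZT8. The narrowest large family was that of Rps12, a small-subunit protein gene with 16 rows. Its differences ran only from -0.16 (Rps12-ps16) to -0.07 (Rps12-ps5), the value of Rps12-ps5 turning to 0.02 after quantile normalization. In the Rpl21 family 12 of 13 rows did not overlap, with differences from -0.36 for Rpl21-ps9 to -0.11 for Rpl21-ps8, with a median of -0.23.

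The 13 rows of Rps19, whose human gene is mutated in Diamond-Blackfan anaemia, ranged from -0.24 (Rps19-ps9) to -0.08 (Rps19-ps12). All 8 Rpl30 rows were without overlap, from -0.28 for Rpl30-ps2 to -0.14 for Rpl30-ps8. All 6 Rpl35a rows were too, but 3 of them hold identical values and are 1 measurement. Over all tested rows 3.39% were without overlap in this direction, and in the brightest of the 5 level classes 732 of 6563. Most Rpl30 and all Rpl35a rows were in that class, and nothing is read from these counts. Families with copies of both signs were Rps15a, from -0.45 to 0.05 over 8 rows, Rpl9, Rpl36, from -0.12 to 0.10 over 8 rows, Rpl13, Rpl26 and Rpl10a. The 4 Rpl13 copies had a median of -0.00056, the least negative among families of at least 4 rows. The 8 copies of Rpsa, the laminin receptor-related protein of the small subunit, ranged from -0.17 to -0.05, with a median of -0.08, and 2 of them were without overlap.

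**Figure D3:**
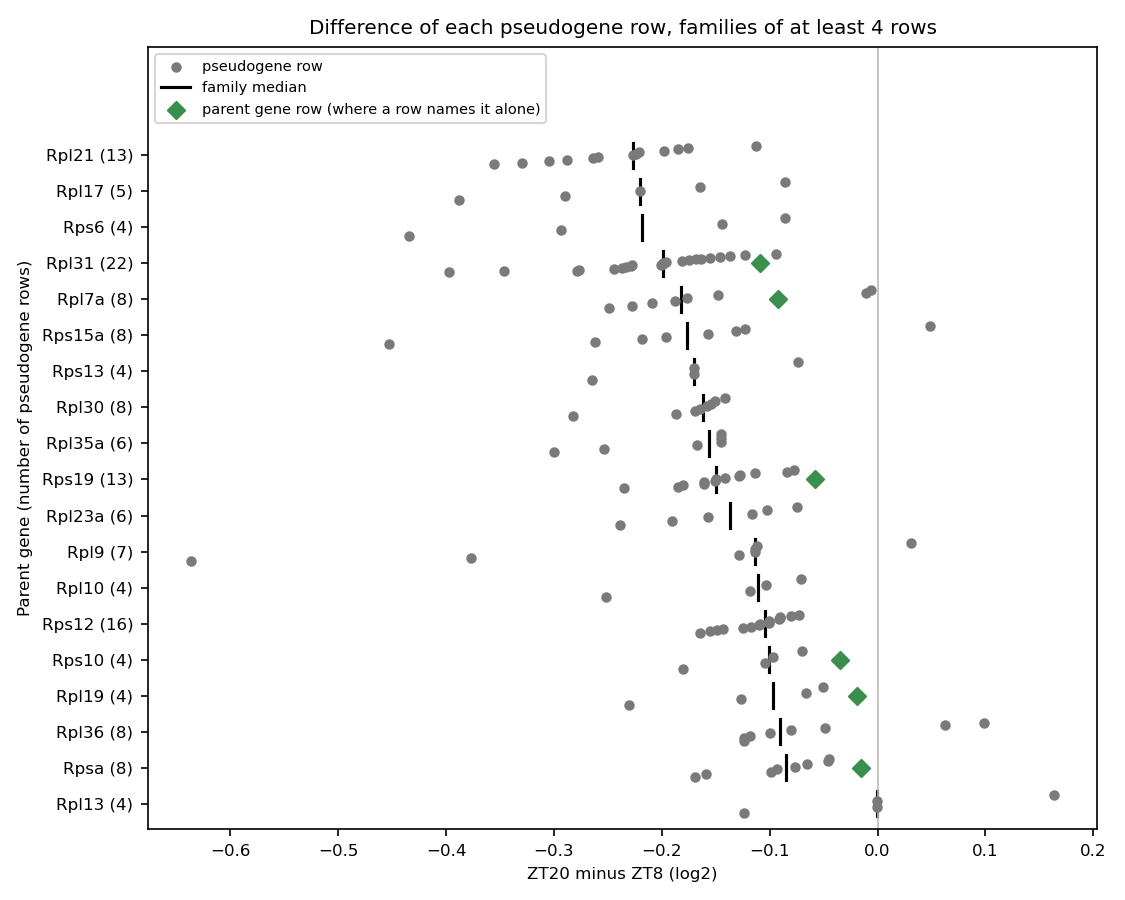
Difference ZT20 minus ZT8 (log2, horizontal axis) of each pseudogene row (grey points) in the 19 families of at least 4 rows, ordered by the family median (black bar), with the parent's row (green diamond) where a row names it alone. The Rpl31 and Rps19 parents lie near the upper end of their copies, and Rpl9 holds both the lowest row and a row above 0.

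The parents themselves were compared where a row named them alone, which was so for 18 of 51. None of the 18 was called (limma; lowest adjusted p 0.076), 1 had an unadjusted p under 0.05, and the methods' t-test gave the same 2 counts. The 18 differences had a median of -0.04, between -0.19 for Rpl39 and 0.02 for Rps18, and 17 were negative. Rpl39 was the only one of the 18 without overlap between the groups, at a background of 3.39%. A further 28 rows named a parent among several genes, with a median of -0.08 and 27 negative. On average the 18 parents stood at 9.61 ± 0.057 at ZT20 and 9.66 ± 0.042 at ZT8 (SD, n = 5 each), and the arrays overlapped. The sign of the parents depended on the scaling, since after quantile normalization 8 of 18 were below 0 with a median of 0.02 and after centring all 18 were, with a median of -0.09 and 1 row called.

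Set against their parent, the copies had the more negative difference in most cases. This held for 71 of 78 pseudogene rows and, with copies averaged, for 16 of 18 families, the exceptions being Rpl35 and Rpl7l1. The change of copies minus parent had a median of -0.08 over the families, from -0.32 for Rps15 to 0.18 for Rpl7l1, and it stayed between -0.10 and -0.07 in each of the fits tried. Subtracting the mean of the parent rows from that of the pseudogene rows on each array gave -0.020 ± 0.046 at ZT20 and 0.088 ± 0.032 at ZT8. The highest ZT20 array (0.047) just exceeded the lowest ZT8 array (0.044), and the other ZT20 arrays lay below all ZT8 arrays. In the 33 families with no parent row the pseudogenes had a median of -0.15, close to the -0.16 of the families with one.

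For Rps24 the parent differed by -0.05 (SE 0.076) and the copies by -0.29 (Rps24-ps2) and -0.23 (Rps24-ps3). The parent's arrays were 8.94, 8.87, 9.18, 9.08 and 8.98 at ZT20, against 8.95, 8.94, 9.03, 9.25 and 9.16 at ZT8, and overlapped throughout. Rps15-ps2 differed by -0.36 and Rps15 by -0.04. All 13 Rps19 copies lay below the parent's -0.06 (SE 0.047). Of the 8 Rpl7a copies 6 lay below the parent's -0.09 (SE 0.052), a value that became 0.01 after quantile normalization.

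Rplp0 encodes the stalk protein of the large subunit and served the study as the reference gene of its quantitative PCR. The Rplp0 row had 10.61, 10.60, 10.63, 10.62 and 10.52 at ZT20, against 10.64, 10.62, 10.63, 10.62 and 10.52 at ZT8. The groups coincided, with a difference of -0.01 (SE 0.045, 95% interval -0.11 to 0.09) that turned to 0.09 after quantile normalization and to 0.01 without ZT20 replicate 5. Its single pseudogene row, Rplp0-ps1 on chromosome 3, had 11.06, 10.86, 11.01, 11.03 and 10.91 at ZT20, against 11.14, 11.17, 11.11, 11.17 and 11.08 at ZT8. Here the groups were apart, by -0.16 (SE 0.050).

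Many copies lie within an unrelated gene, which allowed a second comparison. By RefSeq, 65 pseudogene rows were located inside another gene, and for 52 of them, with 51 symbols, the gene around it was measured by a row of its own. This gave 52 pairs with 51 holding genes, both rows of Rpl14-ps1 lying in Trpm4. The holding genes had a median difference of 0.03, with 19 of 51 below 0, and the pseudogenes within them a median of -0.16 with each symbol counted once. None of the holding genes was called (limma), 3 lower and 4 higher had an unadjusted p under 0.05 (8.37% and 10.2% of all tested rows), and the methods' t-test called none and gave 4 and 5. In no holding gene were all ZT20 arrays below all ZT8 arrays, and in 1, Ttc6, they were all above. The pseudogene had the lower difference in 49 of the 52 pairs. After centring 31 of the 51 holding genes were below 0, with a median of -0.02.

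Rps15a-ps5, at -0.45, lies in Lrrc8d, a subunit gene of volume-regulated anion channels, which differed by -0.0047. Rpl21-ps15, at -0.30, lies in Wnk3, a kinase gene of ion transport, which differed by 0.04. Rps2-ps9 in Ilrun had -0.32 against 0.0098 in the gene. Likewise, Rpl31-ps5 gave -0.40 within Phtf2 and the gene -0.0014, and Rpl30-ps2 gave -0.28 within Thsd1 and the gene 0.23. The holding genes were dimmer as a group, with a median level of 7.18, and only 9 pairs had a holding gene in the brightest of the 5 level classes, where the genes had a median of -0.02.

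**Figure D4:**
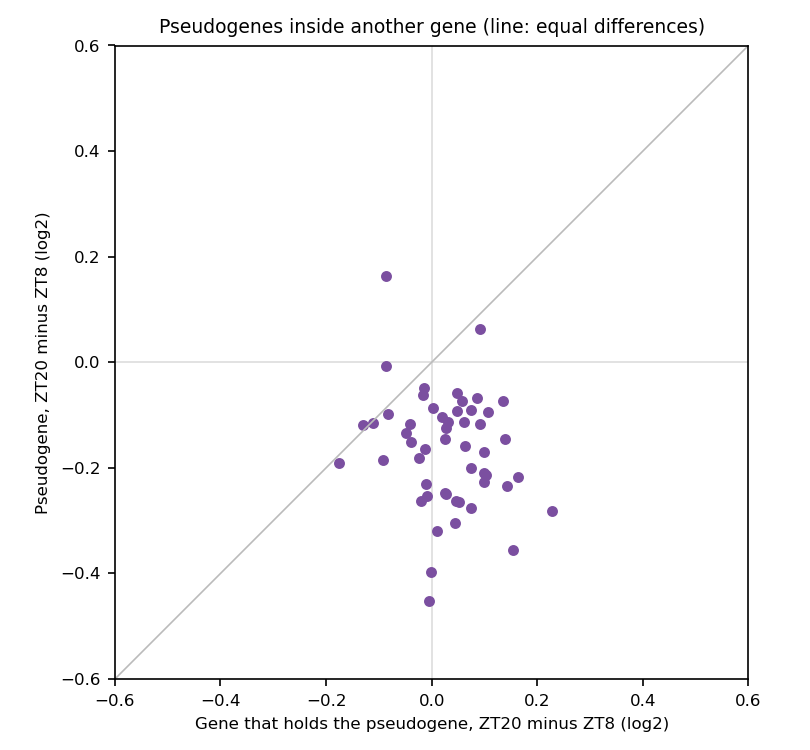
Difference ZT20 minus ZT8 (log2) of the pseudogene row (vertical axis) against that of the gene it lies in (horizontal axis) for 52 pairs, with the line of equal differences. In 49 pairs the point lies below the line.

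Differences on these arrays changed with the level of a row. Tested rows were divided into 5 level classes of equal number by their mean over the 10 arrays, and the all-row median was 0.07, 0.07, 0.06, 0.00 and -0.05 from the dimmest to the brightest class, the last becoming 0.01 after quantile normalization. Of the 209 pseudogene rows 154 were in the brightest class, and their median was -0.16 there, with 153 of 154 below 0. Of all tested rows in that class 71.0% were below 0. The 21 rows of the fourth class had a median of -0.19, the 18 of the third -0.13, the 13 of the second -0.09 and the 3 of the dimmest 0.03. The rows of both signs were therefore unevenly placed, since of the 8 positive rows only Rpl10a-ps1, at 0.01, was in the brightest class.

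**Figure D5:**
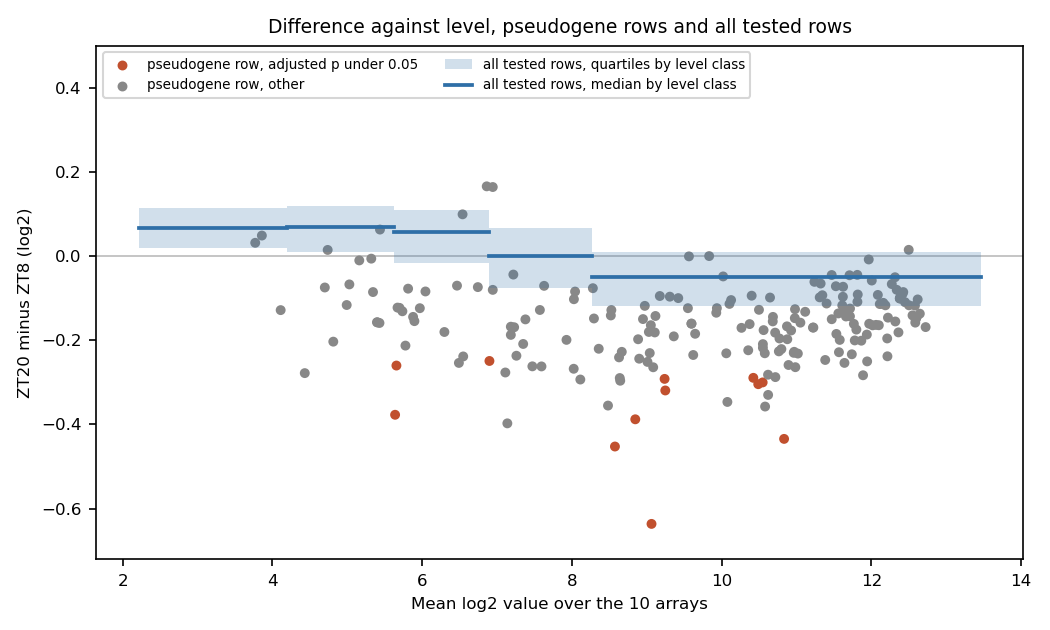
Difference ZT20 minus ZT8 (log2) against the mean log2 value over the 10 arrays for the 209 pseudogene rows (red, called; grey, other), with the median (blue line) and quartiles (blue band) of all tested rows in each of 5 level classes. Most pseudogene rows above a level of 8 lie below the all-row median.

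Pseudogenes of other genes gave a nearby reference. Their 648 rows had a median of 0.04, which became -0.02 after centring and -0.01 after quantile normalization, and 229 negative differences, but 345 of them were in the dimmest class. The 88 in the brightest class had a median of -0.11, with 73 below 0 and 6 called lower. The ribosomal protein pseudogenes of that class had -0.16, 153 of 154 and 9 called, and of all 6563 tested rows in it 130 were called lower and 5 higher. After quantile normalization the median was -0.03 for the 88 rows and -0.09 for the 154 ribosomal protein pseudogene rows. The array means of the other pseudogenes were also apart in the 2 brightest classes (133 rows). They were 9.10 to 9.21 at ZT20 and 9.24 to 9.29 at ZT8.

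Other properties of the copies went with little difference. Rows on X had a median of -0.14 (29 rows) and rows elsewhere -0.16 (180 rows). Copies inside another gene had -0.16 and those outside -0.15. Copies of large-subunit genes had -0.16 (137 rows) and of small-subunit genes -0.14 (72 rows), and 3 classes of equal number by RefSeq length, from short to long, had -0.16, -0.15 and -0.13.

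The genes that make and serve the ribosome were given the same description. Of 47 rows taken by symbol as cytosolic ribosomal protein genes 1 was called, Rpl22l1, a paralogue of Rpl22, at -0.33 (SE 0.060, adjusted p = 0.043, limma). It was not called after quantile normalization or by the methods' t-test. Of the 47 rows 41 were negative with a median of -0.06, which became 28 and -0.0054 after quantile normalization. The symbols also took in paralogues and genes with related names, such as Rps23rg1 and Rps19bp1. Translation factors and other genes whose mRNAs carry a 5′ terminal oligopyrimidine tract, the element through which mTOR signalling controls their translation, gave 16 of 17 negative and a median of -0.09, which became 12 of 17 and -0.01 after quantile normalization. None of the 17 was called, while 4 were lower at an unadjusted p under 0.05 (9 by the methods' t-test, none after adjustment). That threshold was passed by 8.37% of all tested rows in the lower and 10.2% in the higher direction, or by 2482 and 2953 of the 32814 rows with the methods' t-test. Eif3e, a subunit of an initiation factor, was the lowest of them at -0.19. Ribosome biogenesis factors had a median of -0.03 over 19 genes, from -0.21 for the nucleolar protein gene Ncl to 0.21 for Rrs1, the median becoming 0.01 after quantile normalization, and none was called (limma; 4 lower and 1 higher at an unadjusted p under 0.05; by the methods' t-test none, with 4 and 0). Mitochondrial ribosomal protein genes had a median of -0.04 over 74 genes with none called (4 lower and 1 higher; by the methods' t-test none, with 7 and 1). Rows that named a ribosomal protein pseudogene among several genes, 22 in all, had a median of -0.08. All these medians were less negative than the -0.15 of the pseudogenes, a description that no test accompanies.

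Promoter letters of the parents were read from RefSeq windows of 250 bases before to 50 after the start, for the 40 of 51 parents in the table, on both strands. The ETS letters CCGGAAGT were in 8 parents (20%, against 4.31% of 27025 genes) and the YY1 letters AAGATGGC in 5 (12.5%, against 3.19%). The E-box CACGTG, which CLOCK and BMAL1 bind, was in 5 (12.5%, against 8.09%), the D-box TTATGNAA in 1 (2.5%, against 3.99%) and the nuclear receptor letters AGGTCA in 2 (5%, against 18.1%). Rpl31 held the ETS letters and Rpl31-ps12 none of the 5 motifs. A match or its absence describes the letters in these windows only.

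The labelled tissue fitted its markers in so far as beta cell genes were bright in both groups. The mean of 8 beta cell markers was 10.5 to 10.8 on the ZT20 arrays and 10.4 to 10.9 on the ZT8 arrays. No marker of the 9 cell type lists was called and in none of the lists were the groups apart. Acinar genes, at a mean of 10.1 to 11.1 on the ZT20 arrays and 10.0 to 11.2 on the ZT8 arrays, had a median difference of -0.19 with 6 of 7 negative, and macrophage and stellate cell genes had medians of 0.16 each. The part of such cell differences in the pseudogene values was not tested, and in whole islets fewer cells of a type and less RNA per cell cannot be told apart.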

How the data were processed

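Total RNA of 10 islet samples was measured on 10 one-colour Affymetrix arrays. The deposited values were log2 intensities of the authors' normalization, named GCRMA in the heading of the study's gene list and made with Affymetrix Expression Console per the submitters' processing notes. The methods name another array model than the transcript clusters listed in the table, and no source used here gives the genome build. The table held 72688 rows, of which 6732 were controls and 32814 named at least 1 gene in the platform annotation. Rows naming several genes were summarised and not named singly. Values were used as deposited in limma 3.58.1 (R 4.3.3; lmFit and eBayes, 2-sided, ZT20 minus ZT8, no covariate), with Benjamini-Hochberg adjustment over the 32814 rows and calls at an adjusted p under 0.05. The procedure was tested on simulated data.

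Where a gene had several rows the brightest was used, except that all pseudogene rows were kept. RefSeq names matched 208 rows by symbol and 1 by an older symbol. Named rows were all called pseudogene rows, the 8 brightest, the 3 highest and 3 lowest differences, the highest and lowest copy of the 5 largest families, their parents and the Rplp0 pair. Further rows were named as ends of a range or as examples chosen after their values were seen. The members and lists were chosen with earlier results of these data known. Alternatives changed the scaling, rows tested, variance model, array weights, test, threshold and arrays used. Tables were made with Python 3.11.15 and pandas 2.3.3.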

Additional observations from a re-analysis of the deposited data

Results flagged for a closer look

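For 40 named genes and 4 means over rows, 88 groups of 5 arrays were examined, and 9 held an array set apart from the other 4 of its group by Dixon's criterion at the 95% level, which chance meets in about 1 group in 20. Within the called pseudogenes these were ZT8 arrays. Rpl28-ps4 read 5.73 on ZT8 replicate 4 (5.79 to 5.81 on the others), Rpl9-ps3 read 5.72 on the same array (5.83 to 5.87), and Rpl17-ps9 read 8.98 on ZT8 replicate 5 (9.05 to 9.07). Each of these values still lay above all ZT20 arrays of its row.

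Replicate 5 was set apart in further rows. Rplp0 read 10.5 on ZT20 replicate 5 and also on ZT8 replicate 5, against 10.6 on the others of either group. Rpl31-ps9 read 10.2 on ZT20 replicate 5 (10.4 on the others) and 10.4 on ZT8 replicate 5 (10.5 on the others). Rpl30-ps1 read 12.9 on ZT8 replicate 5 (12.8 on the others), and Rps12-ps16 read 11.8 on ZT20 replicate 2 (12.0 to 12.1 on the others).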

How the results depend on the processing

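The median difference of the pseudogenes and the median change of copies minus parent kept their sign and moved by less than the spread between arrays in all alternatives run. Leaving out 1 array gave -0.18 to -0.13 for the first and -0.10 to -0.07 for the second. The number of pseudogene rows called lower, 12, depended on most settings. It was 44 with arrays centred on their medians, 2 after quantile normalization, 39 among rows above the median level, 0 over all transcript rows, 40 with a trended and robust prior, 48 with array weights, 0 by the methods' t-test and 5 at an unadjusted p under 0.05 with at least 1.3-fold. Leaving out 1 array gave 0 to 39. It was 12 with 1 row per symbol or with only rows naming exactly 1 gene, and the count called higher was 0 throughout. Over all tested rows the split of lower and higher calls was 186 and 58, with 492 and 52 after centring, 42 and 13 after quantile normalization and 2 and 0 by the methods' t-test. The labels do not say what a replicate number marks. Deviations of same-numbered arrays correlated at 0.31, 0.28 and 0.35 for replicates 1, 2 and 5, each matching its own number best, and at -0.13 and -0.12 for replicates 3 and 4, so the numbers were not taken to pair the arrays. With the replicate block 3 pseudogene rows were called. Of the 40 named genes 36 kept 1 sign in every fit, the exceptions being Rpl7a, Rpl7l1, Rplp0 and Rps12-ps5. With 5 arrays per group, 197 of the 209 pseudogene rows were not called.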
